A study of Mus musculus with 8 samples.

Results

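The comparison described here sets the 2 RNA sequencing libraries labelled WT and 2 h against the 2 labelled WT and 0 h, 4 of the 8 libraries of the series. NIH3T3 cells, an immortalised line of mouse fibroblasts whose strain is given as Swiss albino, were grown in medium with bovine serum. The 0 h label stands for cells without an agent, and the 2 h label for a 2 h exposure to recombinant murine IFN-β (interferon beta) dosed at 100 units/ml. WT stands for cells that were not edited. The other 4 libraries carry the label of a CRISPR knockout (KO) of ZMYND11 at the same 2 times, and they enter only the estimate of the spread and the test of whether a change differed between labels. The labels name no clone, separate culture or batch, and the text on extraction speaks of embryonic fibroblasts where the source field names NIH3T3. The p-values therefore measure only the spread between these libraries, which may be technical. Of 23304 genes in each table, 12807 had enough reads to be tested, and they are described without regard to whether interferon is known to act on them.

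IFN-β binds a receptor found on nearly all cell types, and the kinases at that receptor phosphorylate Stat proteins. A complex of these with Irf9 binds the interferon-stimulated response element, a short promoter sequence of antiviral genes, which are then transcribed within hours. Fibroblasts in culture are otherwise known for their collagen-rich matrix, for growth in serum, and for contractile fibres that respond to stiffness. ZMYND11 is a chromatin protein that binds a methylated form of histone H3.3.

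The level of Zmynd11 itself, the gene named by the knockout label, did not follow the labels. With the WT label it stood at 123 and 120.4 CPM (the gene's share of the scaled gene reads of its library, in parts per 1000000) at 0 h, and at 3.18 and 3.61 CPM at 2 h (log2 fold change -5.16 with SE 0.13, edgeR adjusted p = 1.27e-18). In the libraries labelled KO it stood at 137 and 131 CPM at 0 h and 3.31 and 4.69 CPM at 2 h. Both libraries labelled WT 2 h thus lay far below both labelled WT 0 h, and no group overlapped across the time label. The 5 tested genes with at least 1 CPM in a label on either side of Zmynd11 on chromosome 13 had log2 fold changes from -1.71 (Idi1) to 0.95 (Ero1lb).

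Ifit1, an antiviral protein that binds foreign RNA and one of the best known interferon-induced genes, with the WT label stood at 1.22 and 1.38 CPM at 0 h, then at 1.73 and 3.95 CPM at 2 h (log2 fold change 1.12 with SE 0.32, edgeR adjusted p = 0.00649). Its levels in the libraries labelled KO were 196 and 229 CPM at 0 h and 396 and 380.1 CPM at 2 h. Ifit1 was thus high with the KO label at both times and low with the WT label at both. Without WT 2 h replicate 2 its change was not called (log2 fold change 0.44, edgeR adjusted p = 0.26). Whether the genotype and time labels were exchanged was not tested, and if they were, each value of 2 h against 0 h below would compare genotypes. For these reasons every direction below is a direction between labels, and "rose", "fell", "higher" and "lower" describe the 2 h label relative to the 0 h label.

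Gene reads summed to 21299120 and 21295619 in the WT 0 h libraries and to 17671612 and 16946107 in the WT 2 h libraries, and 1 read was worth 0.0489 to 0.0556 CPM. Reads were found for 15053 to 15671 genes. Reads mapped outside any gene made up 13.1 to 13.3% of all reads at 0 h and 15.8 to 17.2% at 2 h, and the 100 most read genes held 20.4 to 20.6% and 17.6 to 17.7% of gene reads. Their part in the results was not tested. Replicates of a group differed by more than sampling noise (chi-square per gene 3.04 for WT 0 h and 5.94 for WT 2 h), so no library was a copy of another.

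The identity of the cells as fibroblasts was checked against marker genes. The 10 fibroblast markers summed to 34006 and 33966 CPM at 0 h and to 8082 and 8483 CPM at 2 h. Col1a1 (10270 and 10782 CPM) and Col1a2 (11794 and 11732 CPM) made up most of the 0 h sum. Lum, too low to be tested, had 3 and 2 reads at 0 h and none at 2 h. Of the 9 that were tested, 8 were lower at 2 h and Thy1, a surface protein of fibroblasts, was slightly higher (0.27, SE 0.08), which was not called without either WT 0 h replicate. Markers of other cell types stayed low in all 4 libraries. The 5 endothelial markers summed to 3.22 and 2.41 CPM at 0 h and 12.5 and 13.9 CPM at 2 h. Vwf made up most of the 2 h sum (0.635 and 0.197 CPM at 0 h, 10.6 and 12.2 CPM at 2 h), while Pecam1 and Cdh5 stayed under 1.7 CPM. The 5 muscle markers summed to 3.52 and 3.69 CPM and to 16.7 and 17.6 CPM, with Des below 2.5 CPM at 0 h and at 15.9 and 16.2 CPM at 2 h, no reads of Myf5, and at most 5 reads of Myod1 or Myog in a library. The 6 epithelial markers summed to 6.25 and 7.08 CPM and to 3.40 and 3.56 CPM. The 6 haematopoietic markers gave 13.1 and 13.96 CPM and then 15.3 and 14.9 CPM, without reads of Cd3e. The 5 neural markers stayed at or under 2.501 CPM without reads of Sox10, and the 5 adipocyte markers at 0.733 CPM or less without reads of Plin1 or Cidec. In RNA from bulk cells, fewer cells of a type and less RNA per cell cannot be told apart.

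Most of the genes measured differed between the labels. At an edgeR Benjamini-Hochberg adjusted p below 0.05, 7837 genes were called (61.2% of those tested), of which 3853 were higher (30.1%) and 3984 lower (31.1%) at 2 h. At least 2-fold differences were seen for 1378 higher (10.8%) and 1050 lower genes (8.2%), and at least 8-fold differences for 313 and 142. The 2 libraries of each label did not overlap for 10579 genes (82.6%). The median log2 fold change of all tested genes was 0.01, with quartiles at -0.43 and 0.49. Scaling by library size alone, without a composition factor, moved that median to 0.15 and the split to 4823 higher and 3055 lower genes. All directions below are relative to the composition-scaled median. Counts of called list members below are to be read beside the shares of 30.1% higher and 31.1% lower over all tested genes. The lists were chosen with earlier results of these data known, so their counts are a description and not independent support. The plot of change against level shows how these genes spread over the range of expression.

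**Figure D1:**
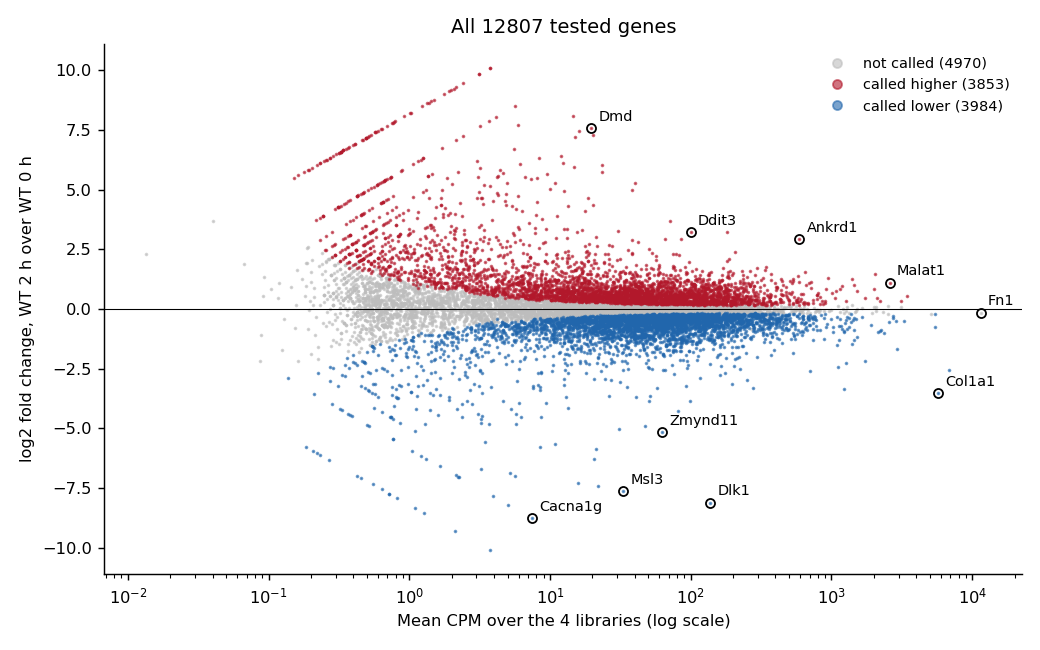
Log2 fold change of WT 2 h over WT 0 h (vertical axis) against the mean CPM of the 4 libraries (horizontal axis, log scale) for all 12807 tested genes, with called genes in red (3853 higher) and blue (3984 lower). Changes were found at every level of expression, and the slanted rows at the left are genes with reads in 1 label only or nearly so.

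The changes were not spread evenly over the chromosomes. Most genes of chromosome 15 and of the X chromosome were lower at 2 h, and most genes of chromosome 18 were higher. On chromosome 15, 315 of 504 tested genes were lower and 54 higher, with a median log2 fold change of -0.62, which is 0.65 of the 0 h level. On the X chromosome, 262 of 415 were lower and 45 higher (median -0.67, a ratio of 0.63). On chromosome 18, 248 of 362 were higher and 27 lower (median 0.69, a ratio of 1.61). Chromosomes 1, 3, 8 and 12 had medians of -0.23, -0.18, -0.15 and -0.20, and those of the other autosomes lay between 0.02 and 0.16. The Y chromosome had too few tested genes for a median and is not described. Scaling by library size alone moves all of these up together, and they are read relative to one another.

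The shift was seen in each library. The genes used here averaged 5 CPM or more in the WT 0 h libraries. This choice leaves out genes low at 0 h and high at 2 h, and the 2 h medians lay lower than over all tested genes. For chromosome 11 they were -0.08 and -0.06, against 0.02 over all its tested genes. The median log2 ratio to the WT 0 h mean for chromosome 15 was -0.67 in both WT 2 h libraries. For chromosome 18 it was 0.63 and 0.62, and for the X chromosome -0.68 and -0.76. The libraries labelled KO 2 h gave -0.67 and -0.67, 0.63 and 0.63, and -0.72 and -0.71 for the same 3 chromosomes. Those labelled KO 0 h lay between -0.10 and 0.09. The chromosome medians therefore separated all libraries labelled 2 h from all those labelled 0 h, in WT and KO labels alike.

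**Figure D2:**
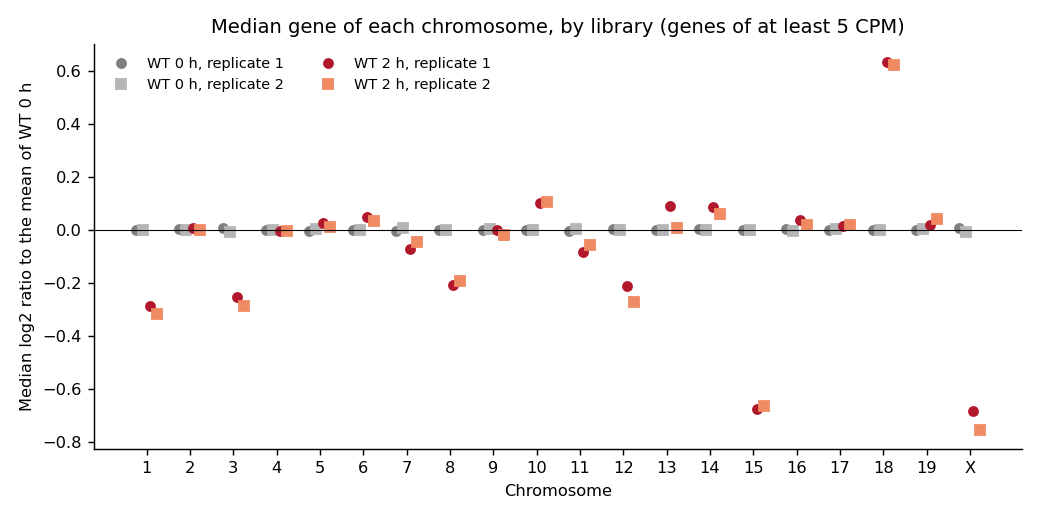
Median log2 ratio of each WT library to the mean of the WT 0 h libraries (vertical axis) for the genes of each chromosome (horizontal axis) with at least 5 CPM. Both WT 2 h libraries stand near -0.7 for chromosomes 15 and X and near 0.63 for chromosome 18. The WT 0 h libraries lie close to 0, being compared with their own mean.

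The shift ran along the whole of these chromosomes. In windows of 30 neighbouring tested genes with at least 1 CPM in a label, all 15 windows of chromosome 15 had a median below 0 (-0.91 to -0.33), as did all 12 windows of the X chromosome (-0.96 to -0.31). All 11 windows of chromosome 18 lay above 0 (0.48 to 0.87). On chromosome 8 all 21 windows lay below 0 (-0.49 to -0.02), on chromosome 1 21 of 22, on chromosome 3 18 of 19 and on chromosome 12 12 of 13. The medians of chromosome 2, shown for comparison, crossed 0 repeatedly, with 8 of 31 windows below it. Scaling by library size alone moved the median of all tested genes from 0.01 to 0.15. The counts of windows below 0 on chromosomes 1, 2, 3, 8 and 12 thus depend on the scaling. All windows of chromosomes 15, 18 and X lay further from 0 than that.

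**Figure D3:**
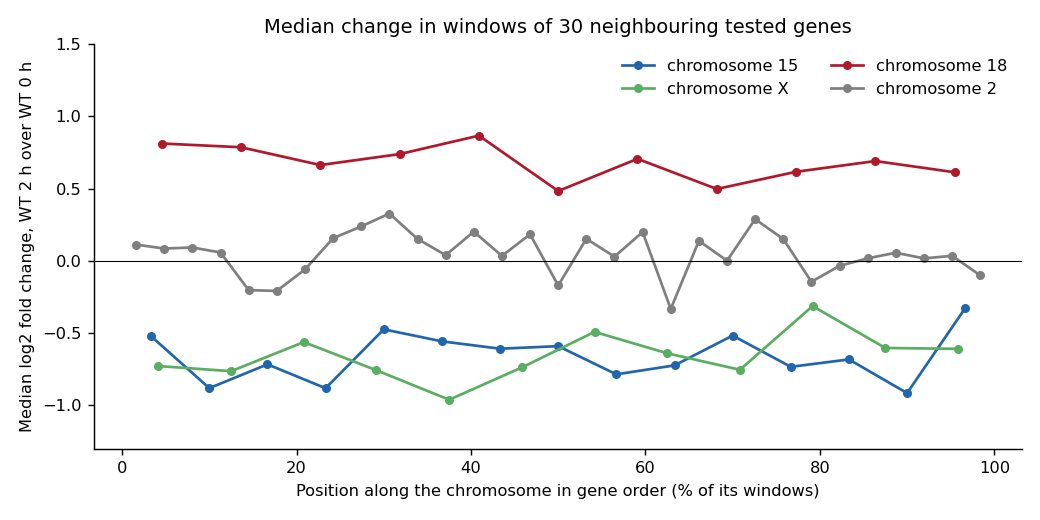
Median log2 fold change of WT 2 h over WT 0 h (vertical axis) in consecutive windows of 30 tested genes, in gene order from the start to the end of each chromosome (horizontal axis, % of its windows). The windows of chromosomes 15 and X all lie below 0 and those of chromosome 18 all above it, while chromosome 2 crosses 0.

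At the end of the X chromosome a run of neighbouring genes was far lower at 2 h, the first 2 of them almost without reads. Msl3, a chromatin protein that binds methylated histone tails, had 67.2 and 64.4 CPM at 0 h and 0.324 and 0.333 CPM at 2 h (log2 fold change -7.62 with SE 0.20, edgeR adjusted p = 2.9e-18). Hccs, which attaches haem to cytochrome c, had 44.3 and 42.8 and then 0.162 and 0.333 CPM (-7.42, SE 0.22). Mid1, a ubiquitin ligase on microtubules, had 23.01 and 22.2 and then 2.75 and 2.17 CPM (-3.20, SE 0.17). The order used holds tested genes with at least 1 CPM in a label. The predicted gene G530011O06Rik, the last in that order, fell by 3.47 on the log2 scale (SE 0.63). Prps2, the tested gene just before Msl3, had 73.5 and 70.7 and then 56.1 and 48.9 CPM (-0.46, SE 0.09, and 0.21 with chromosome medians removed), and Tmsb4x, 2 genes further, was higher at 2 h (0.41, SE 0.08). Tlr7, which lies between Tmsb4x and Prps2, had 0.93 and 1.23 and then 0.54 and 0.33 CPM. It was not called (-1.29, SE 0.59, edgeR adjusted p = 0.065), so its level is uncertain. The low levels thus covered 4 neighbours in this order and not Prps2 or Tmsb4x. G530011O06Rik, Prps2, Tlr7 and Tmsb4x are named for their position. In the libraries labelled KO, Msl3 stood at 78.4 and 71.5 CPM at 0 h and 0.2298 and 0.5603 CPM at 2 h.

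Away from the 3 shifted chromosomes the share of called genes was lower than on them. Of the 11526 other tested genes, 6886 were called (59.7%), 3506 higher and 3380 lower, against 74.2% of the 1281 genes on chromosomes 15, 18 and X. The 11526 include the few tested genes that could not be placed on a chromosome. With the median of each chromosome removed before the test, an alternative added after seeing the data, 7477 genes were called. The chromosome of each gene was taken from a RefSeq table of another assembly than the counts, which placed 12741 of the 12807 genes. Of the genes named below, Bgn, Nsdhl, Tfe3, Gria3 and Nxf3 lie on the X chromosome, Adamts12, Atf4, Fzd6, Nr4a1 and Myh9 on chromosome 15, and Npc1, Atg12 and Etf1 on chromosome 18, and their values hold the shift of that chromosome.

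Measured in CPM, which favours long and abundant transcripts, 7 of the 10 largest falls were those of matrix genes. The 26 tested collagen chains summed to 35011 and 35315 CPM at 0 h and 6806 and 7525 CPM at 2 h, and 20 were lower and 4 higher (median -1.08). Col1a1, the major chain of type I collagen, had 10270.0 and 10782 and then 865 and 991 CPM (log2 fold change -3.50 with SE 0.09, edgeR adjusted p = 1.27e-18). Its partner chain Col1a2 had 11794 and 11732 and then 1892 and 2091 CPM (-2.56, SE 0.08), and Col3a1 of type III collagen had 2309 and 2161 and then 196 and 237 CPM (-3.37, SE 0.09). The 0 h and 2 h libraries were far apart for all of these. Col11a1, a minor fibrillar chain, had the lowest log2 fold change of the list (-3.62, SE 0.11). The 4 chains that rose included Col7a1, of the anchoring fibrils of skin, from 5.13 and 6.73 to 14.5 and 13.6 CPM (1.24, SE 0.17), and Col11a2 (1.15, SE 0.18).

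Other matrix genes fell with them, with exceptions. Of 44 matrix glycoproteins and proteoglycans, 27 were lower and 11 higher (median -0.81), and of 21 elastic fibre and crosslinking genes 18 were lower and 1 higher (median -0.75). Fbn1, the backbone of microfibrils, had 432 and 454 and then 54.1 and 57.97 CPM (log2 fold change -2.98 with SE 0.08, edgeR adjusted p = 3.46e-18), and Fbln5, which organises elastin, 386 and 371 and then 68.8 and 62.97 CPM (-2.52, SE 0.08). Biglycan (Bgn), a small proteoglycan, had 4545 and 4382 and then 1404 and 1402 CPM (-1.67, SE 0.07), and Sparc, a collagen-binding protein, 2861 and 2822 and then 646 and 616 CPM (-2.17, SE 0.09). The 2 labels did not overlap for any of these, as for 82.6% of all tested genes. In contrast, the laminin chain Lama5 rose from 0.879 and 0.491 to 12.5 and 11.3 CPM, the glypican Gpc6 was higher (1.42, SE 0.10), and fibronectin (Fn1) stood at 11875 and 12262 and 10570.3 and 11293 CPM and was not called (-0.14, SE 0.08, edgeR adjusted p = 0.15).

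Of 32 enzymes that cut the matrix and their inhibitors, 12 were higher and 12 lower (37.5% each), against 30.1% and 31.1% of all tested genes. The metalloproteases Adam12 (40.7 and 45.8 CPM at 0 h, 5.23 and 6.002 CPM at 2 h, -2.94, SE 0.16) and Adamts12 (-2.51, SE 0.14) fell. Serpinb2, an inhibitor of plasminogen activators, had 0.195 and 0.147 CPM at 0 h and 33.7 and 30.1 CPM at 2 h (log2 fold change 7.48 with SE 0.26, edgeR adjusted p = 1.16e-16). It was higher in each 2 h library than in each 0 h library, and labels did not overlap for 82.6% of all tested genes. The stromelysin Mmp3 went from at most 2 reads to 2.16 and 3.22 CPM.

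Genes of DNA replication and cell division were lower without exception in the lists used. All 38 tested replication and S phase genes (median -1.10) and all 36 mitosis genes (median -1.07) were called lower, against 31.1% of all tested genes. Their summed levels went from 4534 and 4666 to 2021 and 1987 CPM and from 6793 and 6869.8 to 3617 and 3382 CPM. Only 1 of the first and 2 of the second lay on chromosomes 15, 18 or X. Mcm5, a subunit of the helicase that opens DNA, had 269 and 279 and then 50.9 and 54.8 CPM (log2 fold change -2.37 with SE 0.08, edgeR adjusted p = 1.65e-16), and its partner Mcm6 324 and 325 and then 117 and 102 CPM (-1.57, SE 0.08). Cdk1, the kinase that starts mitosis, had 237 and 233 and then 127 and 123 CPM (-0.91, SE 0.08), and Top2a, which untangles chromosomes, 829 and 839 and then 493 and 444 CPM (-0.83, SE 0.07). Cyclin A2 (Ccna2) fell most among mitosis genes, from 247 and 242 to 58.7 and 63.7 CPM (-1.999, SE 0.08). The labels did not overlap for these 5 genes, as for 82.6% of all tested genes.

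The promoters of these 4 genes are shown because replication and mitosis genes carry known sequence elements. Replication genes are known targets of E2F factors, and many mitosis genes are repressed through the cell cycle homology region (CHR), letters TTTGAA, with nearby CCAAT boxes bound by NF-Y. RefSeq sequences of the GRCm38.p6 assembly end 1 base before the transcription start, and capitals mark E2F sites (TTTCGCGC, TTTGGCGC or TTTCCCGC) and CCAAT boxes in the first 2, and CHR and CCAAT boxes in the last 2, on either strand. E2F sites were not marked in the last 2, and the Cdk1 sequence holds one, TTTCGCGC, in lower case. Mcm5 lies at chr8:75109329-75109508, plus strand, Mcm6 at chr1:128359706-128359885, minus strand, Cdk1 at chr10:69352913-69353092, minus strand and Top2a at chr11:99024190-99024369, minus strand.
Mcm5: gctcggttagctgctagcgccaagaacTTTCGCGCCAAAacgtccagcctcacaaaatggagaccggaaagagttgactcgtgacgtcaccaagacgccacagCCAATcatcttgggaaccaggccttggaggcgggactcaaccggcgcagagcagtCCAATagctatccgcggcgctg
Mcm6: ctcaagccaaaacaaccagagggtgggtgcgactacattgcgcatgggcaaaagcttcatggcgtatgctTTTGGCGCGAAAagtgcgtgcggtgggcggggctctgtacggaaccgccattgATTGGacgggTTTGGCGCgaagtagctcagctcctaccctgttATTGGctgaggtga
Cdk1: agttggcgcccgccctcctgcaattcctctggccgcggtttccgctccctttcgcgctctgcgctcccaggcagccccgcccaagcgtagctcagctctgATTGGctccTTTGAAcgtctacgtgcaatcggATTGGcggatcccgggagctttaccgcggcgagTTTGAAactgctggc
Top2a: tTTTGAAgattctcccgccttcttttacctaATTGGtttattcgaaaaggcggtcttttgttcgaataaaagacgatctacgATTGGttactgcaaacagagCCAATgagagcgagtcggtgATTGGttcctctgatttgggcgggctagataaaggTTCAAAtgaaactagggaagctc
In Mcm5 and Mcm6, 2 E2F sites on opposite strands overlap, and Mcm6 holds a further one at -47 to -40 relative to the start.

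Over windows of 300 bases around the start, an E2F site was found in 36.8% of 38 promoters of replication genes and in 1.84% of all 32851 promoters in the table (3.35% of the 12854 of tested genes). A CHR was found in 24 of 32 mitosis promoters against 17.9% of all and 12.3% of those of tested genes, and a CCAAT box in 81.2% (26 of 32) against 37.4% and 38.2%. Among all genes at least 2-fold lower at 2 h, 4.68% of 962 promoters held an E2F site and 17.2% a CHR, and among genes not called 154 and 595 of 4959. A match is a description of letters and not evidence of binding.

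Related groups followed. Of 24 nucleotide synthesis genes 20 were lower and none higher (1 with scaling by library size alone, median -0.66), with thymidylate synthase (Tyms) at 87.7 and 86.1 and then 26.6 and 27.3 CPM (log2 fold change -1.69 with SE 0.09, edgeR adjusted p = 5.78e-13). Of 38 DNA repair genes 25 were lower and 3 higher (median -0.62), with the nuclease Exo1 at 55.9 and 51.5 and then 18.02 and 18.1 CPM (-1.57, SE 0.10). Ercc1, of nucleotide excision repair, rose (0.79, SE 0.10). The 11 replacement histones included 8 lower and none higher, led among abundant members by the centromere histone Cenpa (-1.77, SE 0.09), while 5 of 9 replication-dependent histone genes with enough reads were higher and none lower. The latter are normally made without a poly(A) tail, and their summed level was 13.2 to 31.1 CPM in all 4 libraries.

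Of 17 regulators of the G1 phase 7 were higher (41.2%) and 8 lower (47.1%), against 30.1% and 31.1% of all tested genes. Cyclin D2 (Ccnd2), which drives entry into the cycle, rose from 445 and 459 to 992 and 986 CPM (log2 fold change 1.13 with SE 0.07, edgeR adjusted p = 6.89e-12). Cyclin G2 (Ccng2), associated with cell cycle arrest, rose from 6.205 and 5.31 to 29.9 and 32.2 CPM (2.43, SE 0.14), and the Cdk inhibitor p27 (Cdkn1b) from 42.1 and 42.4 to 73.6 and 74.1 CPM (0.80, SE 0.09). The inhibitor Cdkn2c and the kinase Cdk6 fell (-0.85, SE 0.10 and -0.72, SE 0.12).

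Genes of cholesterol synthesis were lower throughout the list used. Sterol genes are known to be switched on together by Srebp factors when membrane sterol is low. All 23 tested genes of sterol synthesis and uptake were lower, 21 of them at least 2-fold (median -1.71), and the list summed to 3299 and 3209 CPM at 0 h and 969 and 991 CPM at 2 h. Of these, 18 lay outside chromosomes 15, 18 and X. Nsdhl, a late enzyme of the path, had 109.7 and 107 and then 19.5 and 17.8 CPM (log2 fold change -2.54 with SE 0.09, edgeR adjusted p = 5.17e-16). Fdps, which makes farnesyl diphosphate, had 83.6 and 84.03 and then 15.8 and 15.5 CPM (-2.42, SE 0.11), and Mvd, the mevalonate diphosphate decarboxylase, 53.5 and 53.6 and then 11.9 and 11.7 CPM (-2.18, SE 0.12). Each 2 h library lay below each 0 h library for these 3, and labels did not overlap for 82.6% of all tested genes.

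Fatty acid synthesis moved with it, with 15 of 20 genes lower and 3 higher (median -0.66). The elongase Elovl6 had 154 and 151 and then 36.3 and 31.96 CPM (log2 fold change -2.16 with SE 0.09, edgeR adjusted p = 3.81e-15), and the desaturase Fads2 119 and 110.2 and then 33.996 and 37.1 CPM (-1.69, SE 0.09). Acacb, the acetyl-CoA carboxylase at mitochondria, which restrains fat burning, rose from 6.89 and 6.49 to 26.4 and 26.7 CPM (1.99, SE 0.14). The sterol transporter of lysosomes Npc1 also rose, from 38.3 and 43.7 to 136 and 146 CPM (1.78, SE 0.09).

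The promoter of Mvd is shown as an example of sterol genes, 15 of whose 19 promoter windows (78.9%) held a CCAAT box, capitals in the sequence, against 37.4% of all and 38.2% of those of tested genes. It lies at chr8:122443423-122443602, minus strand (GRCm38.p6, RefSeq).
Mvd: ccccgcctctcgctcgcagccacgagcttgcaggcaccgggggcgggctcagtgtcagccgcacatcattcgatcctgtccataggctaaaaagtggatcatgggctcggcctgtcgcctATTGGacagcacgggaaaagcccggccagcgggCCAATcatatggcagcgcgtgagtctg
The 2 boxes lie on opposite strands, at -27 to -23 and -60 to -56 relative to the start. The classical sterol regulatory element, searched as TCACCCCAC, was in none of the 19 windows, in 0.551% of all and in 0.537% of those of tested genes.

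Genes of translation, RNA splicing and protein degradation were lower by smaller amounts. Among 46 ribosomal proteins of the cytosol, 28 fell and 0 rose (median -0.41), among 38 translation factors 23 and 4 (median -0.43), among 47 splicing factors 33 and 3 (median -0.37) and among 31 proteasome subunits 22 and 0 (median -0.36). Scaling by library size alone left 22, 21, 27 and 16 lower and 1, 8, 5 and 4 higher. Rpl8, of the large ribosomal subunit, had 1617 and 1579 and then 613 and 694 CPM (log2 fold change -1.29 with SE 0.09, edgeR adjusted p = 7.92e-11). Eif3e, of the factor that loads the small subunit on mRNA, had 367 and 364 and then 164 and 154 CPM (-1.20, SE 0.08), and the splicing factor Srsf2 490.2 and 487 and then 240.2 and 256 CPM (-0.98, SE 0.07). Rpl8 and Eif3e lie on chromosome 15, where 7 of the 38 translation factors lie. Outside chromosomes 15, 18 and X the translation factors counted 16 lower and 2 higher of 29, and the ribosomal proteins 24 and none of 40. Psmd3, a proteasome lid subunit, had 306 and 307 and then 167 and 183 CPM (-0.81, SE 0.07). Etf1, which ends translation at stop codons, was higher (0.89, SE 0.07).

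Lysosomes and autophagy moved the other way. Lysosomal enzymes and membrane proteins digest material taken in or delivered by autophagosomes. Of 42 lysosomal genes 31 were higher, 15 of them at least 2-fold, and 3 were lower (1 without WT 2 h replicate 1), against 30.1% higher over all genes. Their sum was 6120.2 and 6048 CPM at 0 h and 11496 and 11608 CPM at 2 h (median 0.69). Psap, the precursor of the saposins that help digest sphingolipids, had 835 and 836 and then 1963 and 2003 CPM (log2 fold change 1.25 with SE 0.07, edgeR adjusted p = 1.12e-12). Ctsl, a protease, had 937 and 982 and then 2003 and 1884 CPM (1.02, SE 0.08), and Idua, which degrades glycosaminoglycans, 7.04 and 7.62 and then 29.3 and 30.3 CPM (2.02, SE 0.14). Each 2 h library was above each 0 h library for these, and labels did not overlap for 82.6% of all tested genes. Tfeb and Tfe3, transcription factors known to activate lysosomal genes, were themselves lower (-0.79, SE 0.21 and -0.72, SE 0.09). Tfeb was not called without WT 2 h replicate 1 (-0.47), nor Tfe3, an X chromosome gene, with chromosome medians removed (-0.06).

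Of 29 autophagy genes 18 were higher and 5 lower (median 0.54), and 3 were lower without either WT 2 h replicate. In the main fit the shares were 62.1% higher and 17.2% lower, against 30.1% and 31.1% of all tested genes. Sqstm1, the cargo receptor p62, rose from 325 and 331 to 719.5 and 767 CPM (log2 fold change 1.18 with SE 0.08, edgeR adjusted p = 2.71e-11). Atg12, part of the conjugation system that builds the autophagosome membrane, rose from 42.02 and 40.2 to 128 and 126 CPM (1.63, SE 0.09), and Atg14 of the lipid kinase complex from 11.97 and 11.8 to 32.6 and 30.8 CPM (1.41, SE 0.12). Atg9a and Atg4b fell (-0.87, SE 0.11 and -0.68, SE 0.10).

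**Figure D4:**
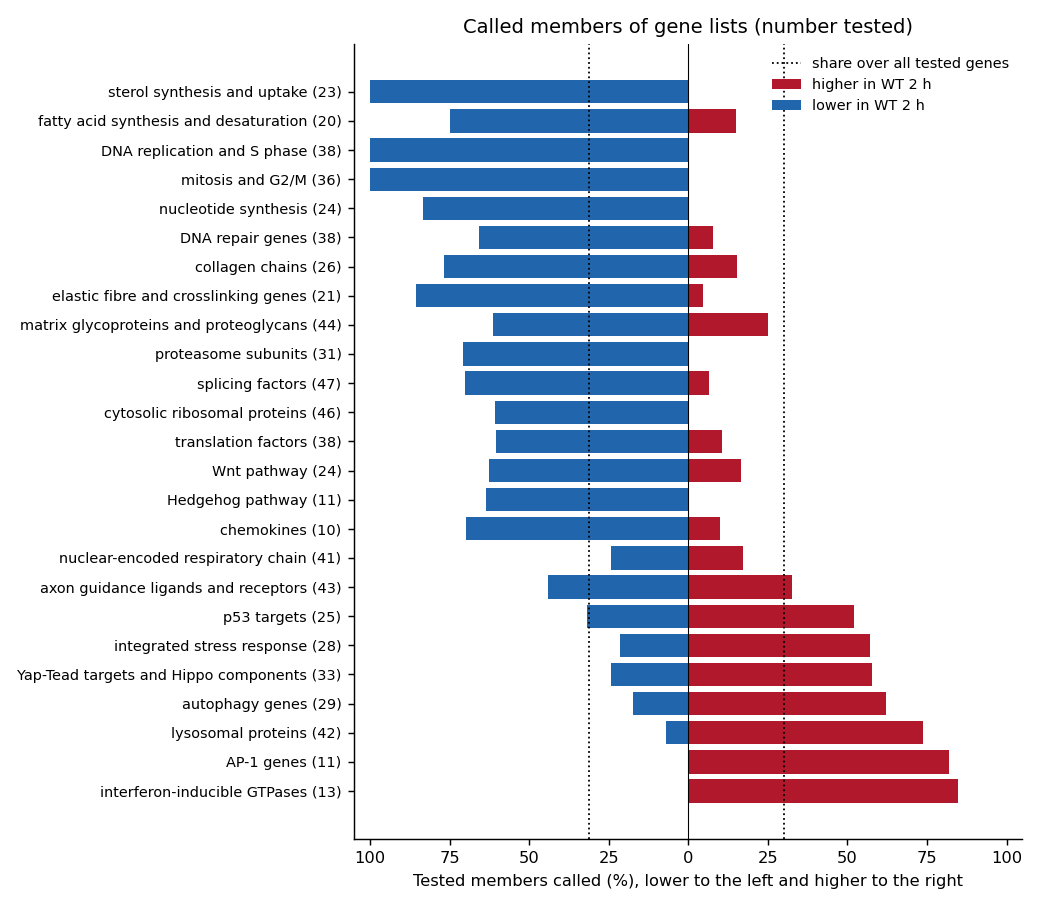
Share of the tested members of 25 gene lists called higher (red, to the right) or lower (blue, to the left) at 2 h, in % (horizontal axis), with the number tested after each name and dotted lines at the shares over all tested genes (30.1% and 31.1%). Sterol, replication and mitosis genes were all lower, and lysosomal, AP-1 and interferon-inducible GTPase genes were mostly higher.

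Stress genes rose in part. The integrated stress response slows translation when the factor eIF2 is phosphorylated and is carried by Atf4. Of 28 of its genes 16 were higher (57.1%) and 6 lower (21.4%), against 30.1% and 31.1% of all tested genes. Ddit3, a transcription factor of prolonged stress, had 17.8 and 20.8 and then 189 and 173 CPM (log2 fold change 3.23 with SE 0.10, edgeR adjusted p = 2.79e-17). Ppp1r15a, which restores translation, had 9.92 and 10.9 and then 72.7 and 75.4 CPM (2.83, SE 0.11), and Trib3, an inhibitor of Akt and Atf4, 7.13 and 7.08 and then 42.6 and 49.1 CPM (2.69, SE 0.13). Chac1, an enzyme that degrades glutathione, had 6.84 and 5.45 and then 29.8 and 33.2 CPM (2.36, SE 0.15). In contrast Psat1, of serine synthesis and also an Atf4 target, fell from 719 and 696 to 349.8 and 356 CPM (-1.004, SE 0.07). Phgdh, the first enzyme of serine synthesis, fell too (-0.52, SE 0.11). Atf4 itself, on chromosome 15, had 341 and 347 and then 289.9 and 297 CPM (-0.23, SE 0.07). That small fall was not called without WT 0 h replicate 2 or WT 2 h replicate 1 and became a rise of 0.39 with chromosome medians removed. The members of this list thus did not move as one.

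The promoter of Chac1 is printed because it held the C/EBP-Atf response element bound by Atf4 and its partners, letters TGATGCAA, in capitals and here on the reverse strand. It lies at chr2:119350992-119351241, plus strand (GRCm38.p6, RefSeq).
Chac1: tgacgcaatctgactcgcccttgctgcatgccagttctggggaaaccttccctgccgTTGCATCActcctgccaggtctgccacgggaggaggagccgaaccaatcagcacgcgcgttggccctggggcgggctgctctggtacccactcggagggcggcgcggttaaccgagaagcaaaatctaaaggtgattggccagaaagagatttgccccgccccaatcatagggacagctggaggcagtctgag
That element was found in 14.3% of 28 promoter windows of stress response genes (4 windows) and 30.8% of 13 of tRNA synthetase genes (also 4), against 0.895% of all windows and 0.638% of those of tested genes.

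Among 20 cytosolic aminoacyl-tRNA synthetases, which charge tRNAs, 10 were higher (50%) and 7 lower (35%), against 30.1% and 31.1% of all tested genes. Nars, the asparagine enzyme, had 532 and 564 and then 1405 and 1268 CPM (log2 fold change 1.29 with SE 0.08, edgeR adjusted p = 1.31e-11), and Lars, the leucine enzyme, 275 and 280.00 and then 535 and 521 CPM (0.93, SE 0.07). Tars, the threonine enzyme, fell from 387 and 386 to 244 and 230.4 CPM (-0.70, SE 0.08). Nars and Lars lie on chromosome 18 and Tars on chromosome 15, and without those and the X chromosome 7 were higher and 6 lower of 16. With chromosome medians removed Tars was not called (-0.09). Hspa9, the mitochondrial Hsp70 chaperone, also on chromosome 18, showed the largest rise in CPM of any gene, from 1037 and 1096 to 3141 and 2828 CPM (1.48, SE 0.08).

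Targets of p53, which are known for arrest and repair after DNA damage, were higher in 13 of 25 cases (52%) and lower in 8 (32%). Over all tested genes 30.1% were higher and 31.1% lower, so the lower share was near that of all genes. Gadd45a, a growth arrest protein, had 4.89 and 6.68 and then 57.4 and 53.6 CPM (log2 fold change 3.26 with SE 0.14, edgeR adjusted p = 1e-14), and Trp53inp1 26.4 and 25.4 and then 138 and 123 CPM (2.33, SE 0.10). Zmat3 and Phlda3, also direct targets, fell (-0.63, SE 0.08 and -0.74, SE 0.09). The metallothioneins Mt1 and Mt2, which bind metal ions, rose from 108 and 99.6 to 274 and 319.5 CPM (1.51, SE 0.08) and from 33.1 and 33.2 to 104 and 131 CPM (1.82, SE 0.11). The oxidative stress enzyme Nqo1 fell from 79.8 and 71.01 to 20.9 and 21.7 CPM (-1.82, SE 0.10), within a list of Nrf2 targets where 12 of 25 were lower and 5 higher (3 without WT 0 h replicate 1).

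Genes that respond within minutes to growth factors were often higher. Of 11 AP-1 genes, the Fos, Jun and Maf factors, 9 were higher (81.8%) and none lower (median 0.62), against 30.1% and 31.1% of all tested genes. Fosb had 4.84 and 4.37 and then 37.02 and 38.01 CPM (log2 fold change 3.02 with SE 0.14, edgeR adjusted p = 2.48e-14), and Mafk 33.4 and 35.6 and then 113 and 116 CPM (1.73, SE 0.11). Of 17 Dusp and Sprouty genes, which damp MAP kinases, 10 were higher (58.8%) and 5 lower (29.4%). Dusp4 had 37.5 and 31.6 and then 316 and 335 CPM (3.24, SE 0.09) and Dusp1 16.3 and 18.2 and then 86.6 and 90.4 CPM (2.36, SE 0.10), while Dusp9, an X chromosome gene, fell from 31.3 and 31.5 to 5.45 and 7.23 CPM (-2.31, SE 0.14). Of 24 Egr, Nr4a and Ier early genes 11 were higher and 7 lower (4 without WT 2 h replicate 1 or with library size alone), and the zinc finger factors Egr2 and Egr3 were among those that fell (-0.77, SE 0.16 and -0.99, SE 0.14). In the main fit 45.8% of the Egr, Nr4a and Ier genes were higher and 29.2% lower, the latter near the share over all tested genes. Edn1, the vasoactive peptide endothelin, had 3.03 and 2.899 and then 29.8 and 26.1 CPM (3.24, SE 0.16).

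Yap and Tead factors drive genes of growth and of the cytoskeleton in cells under tension. Of 33 genes of this pathway 19 were higher and 8 lower (5 without WT 0 h replicate 2). In the main fit the shares were 57.6% higher and 24.2% lower, against 30.1% and 31.1% of all tested genes. Ankrd1, a classical target, had 128 and 148 and then 1071 and 1019 CPM (log2 fold change 2.92 with SE 0.09, edgeR adjusted p = 1.15e-17). F3, tissue factor, had 73.4 and 68.6 and then 211 and 208 CPM (1.56, SE 0.08), and Lats2, a kinase that inhibits Yap, 71.4 and 72.5 and then 189.9 and 203 CPM (1.45, SE 0.08). All 2 h values lay above all 0 h values for these 3, while Tgfb2 fell (-1.18, SE 0.19). Labels did not overlap for 82.6% of all tested genes.

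A Tead site, letters GGAATG, was found in 56.2% (18 of 32) of the promoter windows of this list, in 14.7% of all and in 12.4% of those of tested genes. The promoter of Ankrd1 holds 2 of them, in capitals, and lies at chr19:36119845-36120094, minus strand (GRCm38.p6, RefSeq).
Ankrd1: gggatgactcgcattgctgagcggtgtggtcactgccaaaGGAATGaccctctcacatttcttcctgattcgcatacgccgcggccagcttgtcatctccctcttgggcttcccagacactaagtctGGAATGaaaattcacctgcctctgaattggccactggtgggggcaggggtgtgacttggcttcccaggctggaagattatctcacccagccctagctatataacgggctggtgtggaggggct
The sites begin at -210 and -123 relative to the start.

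Of 33 contractile genes 13 were higher (39.4%) and 9 lower (27.3%), against 30.1% and 31.1% of all tested genes, with the actin-binding Tagln at 105 and 104 and then 266 and 264 CPM (log2 fold change 1.34 with SE 0.10, edgeR adjusted p = 8.59e-11) and caldesmon (Cald1) at 1122 and 1157 and then 2026 and 1807 CPM (0.75, SE 0.07). Vimentin (Vim), the main intermediate filament of fibroblasts, fell from 6937 and 6667 to 4023 and 4113 CPM (-0.74, SE 0.08). Of 28 genes of actin and tubulin, 15 were lower and 3 higher (1 without WT 0 h replicate 1), and Tubb5 fell from 2814 and 2844 to 1450.2 and 1473 CPM (-0.95, SE 0.08). The tubulins Tuba1a and Tuba1b, near-identical in sequence and both on chromosome 15, fell (-1.37, SE 0.10 and -1.89, SE 0.10), so their single values are uncertain.

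**Figure D5:**
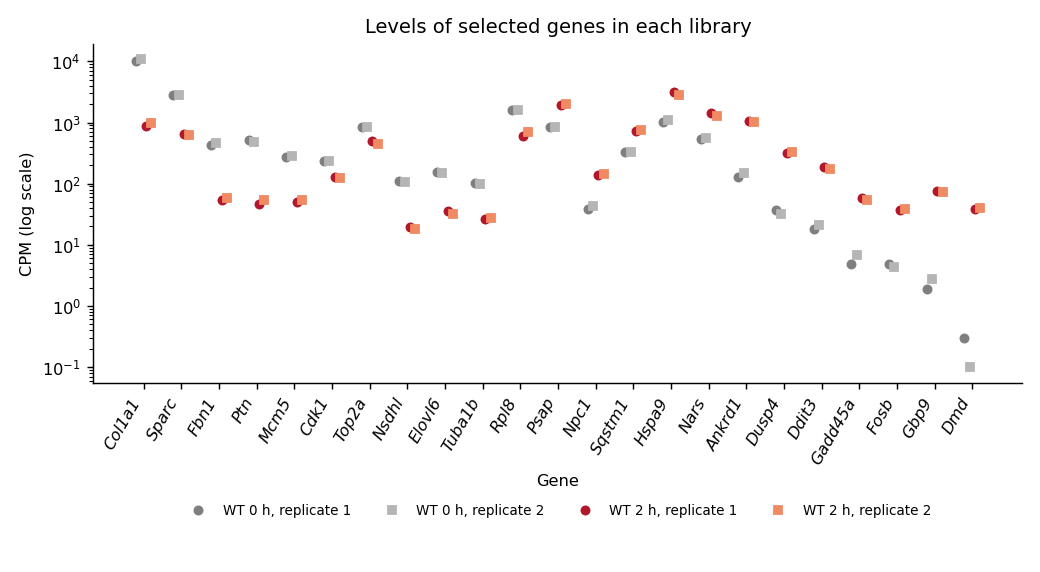
CPM of 23 named genes (horizontal axis) in each of the 4 libraries on a log scale (vertical axis), with grey symbols for WT 0 h and red or orange for WT 2 h, circles for replicate 1 and squares for replicate 2. Replicates lie close together and the 2 labels are apart for every gene shown, as for 82.6% of all tested genes. Matrix and cell cycle genes stand at the left and stress and early genes towards the right.

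The Wnt, Hedgehog and receptor kinase lists held more lower than higher genes, beside 31.1% lower over all tested genes. Of 24 Wnt genes 15 were lower and 4 higher (2 without WT 0 h replicate 2), and of 11 Hedgehog genes 7 and none (1 with scaling by library size alone). The Wnt receptor Fzd6 had 8.35 and 7.22 and then 0 and 0.0556 CPM (ratio of summed CPM 285, exact 95% counting interval 50.7 to 11274), and the coreceptor Lrp5 97.4 and 101 and then 33.7 and 34.2 CPM (-1.55, SE 0.09). Smo, the signal transducer of the Hedgehog pathway, had 187 and 194 and then 94.5 and 107 CPM (-0.92, SE 0.08), and Gas1, a Hedgehog coreceptor, 255 and 237 and then 63.2 and 66.97 CPM (-1.92, SE 0.08). Of 22 growth factor receptor kinases 11 were lower and 4 higher (2 without WT 0 h replicate 1), with the fibroblast receptor Pdgfra at 209.7 and 218 and then 78.1 and 75.4 CPM (-1.48, SE 0.08). The labels were apart for each of these 5, as for 82.6% of all tested genes.

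Of 41 TGF-beta and BMP genes 14 were higher (34.1%) and 16 lower (39.0%), against 30.1% and 31.1% of all tested genes. Ltbp2, a latent TGF-beta binding protein of the matrix, had 353 and 357 and then 37.1 and 42.9 CPM (log2 fold change -3.15 with SE 0.09, edgeR adjusted p = 1.06e-17), and the activin antagonist follistatin (Fst) 53.6 and 57.8 and then 7.18 and 6.39 CPM (-3.04, SE 0.12). The inhibitor Smad7 had 63.9 and 66.1 and then 150.1 and 161 CPM (1.26, SE 0.08), and lies on chromosome 18. Of secreted factors, pleiotrophin (Ptn), a heparin-binding growth factor, fell from 517 and 483 to 46.5 and 53.7 CPM (-3.32, SE 0.09), while Hbegf, an EGF receptor ligand also on chromosome 18, rose from 125 and 131 to 338 and 349.9 CPM (1.43, SE 0.08). Vegfa, the endothelial growth factor, rose from 191 and 186 to 377 and 366 CPM (0.98, SE 0.07). In G-protein signalling, 12 of 23 genes were lower and 3 higher, and Rgs4, which shortens G-protein signals, had 18.3 and 15.3 and then 0.216 and 0.389 CPM (-5.77, SE 0.31).

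Guidance molecules, known from growing axons and also made by fibroblasts, included 14 of 43 higher (32.6%, against 30.1% of all tested genes) and 19 lower (44.2%, against 31.1%). Slit3, a repulsive ligand, had 295 and 309 and then 44.8 and 50.2 CPM (log2 fold change -2.67 with SE 0.09, edgeR adjusted p = 3.86e-17), and the netrin receptor Unc5c 16.6 and 13.02 and then 1.51 and 1.72 CPM (-3.19, SE 0.23). Robo2, a Slit receptor, had no reads at 0 h and 1.403 and 1.11 CPM at 2 h. Unc5c was thus lower and Robo2 higher in both 2 h libraries.

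Of 22 cadherins and junction proteins 9 were higher and 9 lower (40.9% each, against 30.1% and 31.1% of all tested genes). Among protocadherins, 22 of the 33 tested lay on chromosome 18, and the list median of 0.71 became 0.02 once each chromosome's median was subtracted. The 10 outside chromosomes 15, 18 and X had a median of 1.65, with 7 higher and 2 lower. Pcdh9, on another chromosome, was without reads at 0 h and stood at 8.47 and 6.503 CPM at 2 h, and the atypical cadherin Fat3 had 1 read in each 0 h library and 11.9 and 11.8 CPM at 2 h (ratio of summed CPM 242, exact 95% counting interval 66.6 to 2004). N-cadherin (Cdh2), on chromosome 18, rose from 196 and 196 to 566 and 518 CPM (log2 fold change 1.47 with SE 0.08, edgeR adjusted p = 1.87e-13), and Cdh11, the cadherin of mesenchyme, fell from 80.4 and 75.3 to 22.1 and 19.4 CPM (-1.91, SE 0.10).

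Several single genes had very large changes. Dystrophin (Dmd), which links actin to the membrane of muscle fibres, had 0.293 and 0.0983 CPM at 0 h and 38.2 and 39.7 CPM at 2 h (log2 fold change 7.59 with SE 0.33, edgeR adjusted p = 1.68e-13). It lies on the X chromosome, whose other genes were mostly lower. Xirp2, an actin-binding protein of muscle, had 0 and 0.0491 and then 7.18 and 7.61 CPM (ratio of summed CPM 302, exact 95% counting interval 53.7 to 11961). The calcium channel subunit Cacna1g went the other way, from 15.2 and 14.5 to 0.05396 and 0 CPM (ratio of summed CPM 543, exact 95% counting interval 97.1 to 21489), as did the glutamate receptor subunits Gria1 (43.8 and 39.1 to 0.594 and 0.834 CPM, -5.85, SE 0.19) and Gria3 (30.7 and 32.1 to 0 and 0.389 CPM, -7.30, SE 0.31). Aldh1a1, which makes retinoic acid, rose from 0.147 and 0.246 to 15.9 and 16.8 CPM (6.34, SE 0.30), and Foxp2, a transcription factor, from at most 1 read to 12.2 and 10.4 CPM (ratio of summed CPM 462, exact 95% counting interval 82.4 to 18274).

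Dlk1, a membrane protein of preadipocytes from an imprinted gene, had 277 and 269 CPM at 0 h and 0.702 and 1.28 CPM at 2 h (log2 fold change -8.10 with SE 0.15, edgeR adjusted p = 5.15e-21). Its imprinted neighbour Rtl1, a retrotransposon-derived gene, fell with it (ratio of summed CPM 38.9, exact 95% counting interval 10.5 to 327), and Igf2, a fetal growth factor, had 3.62 and 5.36 and then 0 and 0.0556 CPM (ratio of summed CPM 164, exact 95% counting interval 29.03 to 6503). In all, 12 of 22 imprinted genes were lower (54.5%) and 4 higher (18.2%), against 31.1% and 30.1% of all tested genes. Impact, a regulator of the stress kinase Gcn2 on chromosome 18, rose from 162 and 155 to 537 and 525 CPM (1.75, SE 0.09). Of 39 mesenchymal transcription factors 18 were lower (46.2%) and 9 higher (23.1%), with Prrx2 at 56.8 and 58.5 and then 15.6 and 15.95 CPM (-1.87, SE 0.11). Hox genes, which mark the position a fibroblast came from, were mostly not called, with 4 of 20 higher and 2 lower (10 and 1 with scaling by library size alone, 2 and 1 without WT 0 h replicate 1). In the main fit 20% of the Hox genes were higher and 10% lower, against 30.1% and 31.1% of all tested genes. The clock repressor Per2 fell (-1.26, SE 0.12) and Nfil3, which binds D-box elements, rose (1.81, SE 0.12).

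Chemokines were lower in 7 of 10 cases and higher in 1, against 31.1% and 30.1% of all tested genes. The higher one was Ccl8, not called without either WT 0 h replicate or WT 2 h replicate 2. Cxcl12, which retains blood stem cells in marrow, had 12.2 and 10.4 and then 0.05396 and 0.111 CPM (ratio of summed CPM 138, exact 95% counting interval 46.8 to 669), and the membrane-bound Cx3cl1 47.1 and 50.5 and then 3.83 and 4.002 CPM (-3.64, SE 0.14). Both 2 h libraries lay far below both 0 h libraries for these, and labels did not overlap for 82.6% of all tested genes. The cytokine Il6 was low in all 4 libraries but higher at 2 h, with 0.831 and 0.639 and then 4.101 and 3.89 CPM (2.43, SE 0.32). Tnfaip3, which ends NF-kB signals, rose from 7.33 and 4.52 to 39.8 and 34.01 CPM (2.64, SE 0.16). Complement C3 fell from 66.3 and 60.7 to 6.42 and 6.89 CPM (-3.25, SE 0.13).

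Genes known to be induced by interferon moved in both directions. Of 29 antiviral effectors 11 were higher and 7 lower (4 without WT 2 h replicate 2), shares of 37.9% and 24.1% against 30.1% and 31.1% of all genes. Stat2, a transcription factor activated at the interferon receptor, rose from 14.7 and 14.6 to 27.4 and 28.5 CPM (log2 fold change 0.93 with SE 0.10, edgeR adjusted p = 3.78e-08), and Irf9, its partner on DNA, from 8.501 and 6.58 to 16.1 and 15.9 CPM (1.08, SE 0.13). The membrane proteins Ifitm2 and Ifitm3, which block virus entry, fell (-0.98, SE 0.08 and -1.04, SE 0.08), and Bst2, which tethers budding viruses, rose from 4.45 and 5.55 to 20.7 and 24.1 CPM (2.16, SE 0.15).

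Of 13 interferon-inducible GTPases, which attack the vacuoles of intracellular pathogens, 11 were higher, 10 of them at least 2-fold, and none lower (median 2.81). Gbp8 had 0.147 and 0.246 and then 33.1 and 26.7 CPM (log2 fold change 7.20 with SE 0.26, edgeR adjusted p = 3.61e-16), and Irgm1 22.9 and 23.2 and then 75.7 and 71.8 CPM (1.68, SE 0.09). Irgm2 had 0.782 and 0.393 and then 4.64 and 4.28 CPM (2.91, SE 0.26), and Igtp 0.733 and 0.442 and then 3.29 and 5.06 CPM (2.81, SE 0.31). Members of these families resemble each other in sequence, and multi-mapping reads stayed unassigned in the tables, which makes their single values uncertain.

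The promoters of the neighbouring genes Irgm2 and Igtp are shown because both hold an interferon-stimulated response element, searched as GAAANNGAA, and a gamma-activated site (GAS), TTCNNNGAA, which capitals mark. N stands for any base. They lie at chr11:58214797-58214976, plus strand, and chr11:58199376-58199555, plus strand (GRCm38.p6, RefSeq).
Irgm2: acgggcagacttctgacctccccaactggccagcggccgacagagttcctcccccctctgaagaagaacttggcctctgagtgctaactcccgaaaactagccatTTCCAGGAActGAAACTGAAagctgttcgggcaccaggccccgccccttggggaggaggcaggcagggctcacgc
Igtp: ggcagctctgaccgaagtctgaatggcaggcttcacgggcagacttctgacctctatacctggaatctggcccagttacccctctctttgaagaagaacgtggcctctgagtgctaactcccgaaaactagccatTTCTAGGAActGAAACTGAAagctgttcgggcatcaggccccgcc
In both promoters the GAS lies just upstream of the response element, at -75 to -67 and -64 to -56 in Irgm2 and at -45 to -37 and -34 to -26 in Igtp. The response element was in 87.5% of 8 promoter windows of this list, in 52.0% of 25 of antiviral effectors in 8.56% of all 32851 and 7.05% of those of tested genes, and in 9.21% of the windows of genes at least 2-fold higher at 2 h.

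For 17 of 12807 genes (0.133%) the change between 2 h and 0 h differed between the WT and KO labels, by the edgeR test of the difference. The change was larger in the WT label for 10 of them. The GTPase list held 5 of the 17 and the list of antiviral effectors 3. Gbp9 had 1.91 and 2.75 and then 75.01 and 74.2 CPM in the WT label and 15.2 and 17.8 and then 167 and 159.6 CPM in the KO label (difference of the log2 changes 1.69, SE 0.19, edgeR adjusted p = 6.15e-05). Irgm1 had 376 and 384 and then 469 and 409 CPM in the KO label (difference 1.47, SE 0.12, edgeR adjusted p = 2.39e-07), so that its level was high there at both times. Usp18, which removes Isg15 from proteins and limits interferon signalling, had 0.4397 and 0.344 and then 3.02 and 3.39 CPM in the WT label and 50.3 and 50.5 and then 123 and 106 CPM in the KO label (difference 1.82, SE 0.33, edgeR adjusted p = 0.0179). The KO 0 h libraries lay above the WT 0 h libraries for all 3. Leaving out 1 WT library at a time left 6 to 16 such genes, 6 without WT 2 h replicate 1 and 9 without WT 0 h replicate 2.

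For 7 genes the change was smaller, that is more negative or less positive, in the WT label. Ccl2, which attracts monocytes, had 98.1 and 91.9 and then 7.07 and 6.28 CPM in the WT label and 175 and 172 and then 20.9 and 24.7 CPM in the KO label (difference -0.89, SE 0.15, edgeR adjusted p = 0.00936). Nr4a1, an early nuclear receptor, rose in both (difference -0.76, SE 0.13, edgeR adjusted p = 0.00855), and Snai1, a repressor of epithelial genes, had log2 fold changes of -1.002, SE 0.10 in the WT label and -0.23, SE 0.10 in the KO label (difference -0.77, SE 0.14, edgeR adjusted p = 0.0168). Oas3, which senses double-stranded RNA, was not called in the WT label, with 0.733 and 0.983 and then 0.702 and 1.0004 CPM, and had 2.65 and 2.67 and then 12.7 and 16.9 CPM in the KO label (difference -2.48, SE 0.47, edgeR adjusted p = 0.0216). For the remaining genes a difference between the labels did not pass the test, which does not show that the changes were alike. Of the genes named for a difference, Gbp9, Irgm1 and Irgm2 passed with each WT library left out. Usp18 passed in none of the 4 such fits, and Oas3, Snai1, Ccl2 and Nr4a1 in 1 to 3 of them.

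Some genes were read in 1 label only. There were 1400 genes without reads in both WT 0 h libraries, of which 48 had at least 10 reads in each 2 h library, and 1066 without reads in both WT 2 h libraries, of which 12 had at least 10 reads in each 0 h library. Against 3 reads summed over the group, Pcdh9 was at least 101.9-fold higher at 2 h and Sgcz, a sarcoglycan of the dystrophin complex, at least 85.8-fold. Chi3l1, a secreted chitinase-like protein, was at least 90.7-fold lower, the RNA export factor family member Nxf3 at least 51.9-fold and fibromodulin (Fmod) at least 26.9-fold. These bounds allow only for counting error in the label without reads, and not for that in the other label or for the choice of the highest genes.

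Of the most abundant genes, 10 that were not called were Fn1, Eef2, Eef1a1, Myh9, Hsp90b1, Rpl4, Itgb1, Nedd4, Lrp1 and Fbln2. They had log2 fold changes from -0.21 (Eef1a1, edgeR adjusted p = 0.0532) to 0.11 (Fbln2, edgeR adjusted p = 0.197). The elongation factor Eef2 had 5422 and 5378 and then 4580.0 and 4901 CPM, and Myh9, the heavy chain of nonmuscle myosin, 2896 and 3097 and then 3255 and 3209 CPM. With only the 4 WT libraries in the fit Eef1a1, Eef2, Rpl4 and Fn1 were called lower, and with scaling by library size alone Fbln2, Itgb1, Lrp1 and Myh9 were called higher. In contrast to them stood Malat1, a nuclear long non-coding RNA, which was higher at 2 h with an uneven pair of values (1551 and 1727 and then 4248 and 2818 CPM, log2 fold change 1.11 with SE 0.14, edgeR adjusted p = 7.7e-06). Neat1, a second nuclear RNA, had 282 and 313 and then 609 and 609.8 CPM (1.03, SE 0.07).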

How the data were processed

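The authors deposited 1 table of raw read counts per gene for each library, with summary lines for reads not assigned to a gene, kept out of the library totals and fits (36.9 to 42.5% of the WT tables). The tools named per the submitters' processing notes are STAR 2.5.2b, HTSeq and bcl2fastq 2.15, with mm9 as build. Their roles, the gene annotation used and whether counting was stranded are not given in these sources. Without a strand setting, overlapping and antisense genes cannot be told apart.

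Counts were tested with edgeR 4.0.16 (R 4.3.3, TMM factors, quasi-likelihood test, Benjamini-Hochberg adjustment at 0.05) over all 8 libraries, with 1 group per label pair and 4 residual degrees of freedom. Genes passed filterByExpr (a minimum count of 10, a minimum total of 15). The contrast was WT 2 h minus WT 0 h, and the difference from the KO contrast was tested as an interaction. CPM values use TMM-scaled library sizes. The fit was tested on simulated data. The depth of 16946107 to 21299120 gene reads per library sets the precision. Intervals cover counting error only, and bounds only that of the label without reads.

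Chromosomes and gene order came from a RefSeq gene table and promoters (250 bases before to 50 after the start) from a RefSeq promoter table, both by symbol. Members and gene lists were chosen with earlier results of these data known. Named genes are the largest changes and most abundant genes, and the list members with the largest changes. Cdk1, Mcm6, Top2a, Mvd and Chac1 were named for their promoters, Idi1, Mid1, G530011O06Rik, Prps2, Tlr7 and Tmsb4x for their position, and Atf4, Oas3 and the marker genes for their lists, after their values were seen. Alternatives were composition factors of DESeq2 (RLE), library size alone, DESeq2 1.42.0, other filters, only the WT libraries, a replicate block, each WT library left out, and chromosome medians removed, the last chosen after seeing the data. Some genes taken by the naming rule are not reported here.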

Additional observations from a re-analysis of the deposited data

Results flagged for a closer look

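For 9 of the genes named above, the change between the 2 h and 0 h labels differed between the WT and KO labels by the edgeR test of the difference itself. The log2 change was larger with the WT label for Gbp9 (1.69, SE 0.19, edgeR adjusted p = 6.15e-05), Irgm1 (1.47, SE 0.12, edgeR adjusted p = 2.39e-07), Irgm2 (2.25, SE 0.28, edgeR adjusted p = 0.000243), Igtp (2.02, SE 0.35, edgeR adjusted p = 0.0103) and Usp18 (1.82, SE 0.33, edgeR adjusted p = 0.0179). For these 5 the KO 0 h libraries already stood above the WT 0 h libraries, at 123 and 138 CPM against 0.782 and 0.393 CPM for Irgm2 and at 68.8 and 76.7 CPM against 0.733 and 0.442 CPM for Igtp. The log2 change was smaller with the WT label for Oas3 (-2.48, SE 0.47, edgeR adjusted p = 0.0216), Ccl2 (-0.89, SE 0.15, edgeR adjusted p = 0.00936), Snai1 (-0.77, SE 0.14, edgeR adjusted p = 0.0168) and Nr4a1 (-0.76, SE 0.13, edgeR adjusted p = 0.00855).

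Without WT 0 h replicate 1 the difference was not called for Snai1 and Usp18. Without WT 0 h replicate 2 it was not called for Igtp, Oas3 and Usp18. Without WT 2 h replicate 1 it was not called for Ccl2, Nr4a1, Oas3, Snai1 and Usp18, and without WT 2 h replicate 2 for Ccl2, Igtp, Oas3, Snai1 and Usp18.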

How the results depend on the processing

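The 7837 calls became 7828 with RLE factors, 7878 with library size alone, 7243 with DESeq2, 7721 without a filter, 7672 with a filter of 1 CPM and 8427 with only the WT libraries. Library size alone shared 6908 of the 7837 and moved the split from 3853 higher and 3984 lower to 4823 and 3055. Leaving out 1 WT library gave 6425 to 6726 calls, of which 6356 to 6516 were shared. With chromosome medians removed there were 7477, of which 6702 were shared with the main calls and 6617 of those in the same direction. The same-numbered replicates did not deviate together (r = -0.0132 over 12807 genes), the labels do not say that they are paired, and a fit with the replicate number as a block gave 7567 calls.

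The 17 genes whose change differed between the WT and KO labels became 33 with DESeq2, 113 without a filter, 15 with the block, and 6 to 16 with 1 WT library left out. At an unadjusted p under 0.05 there were 1637. Of the named genes, Atf4 and Prps2 changed sign with chromosome medians removed (0.39 and 0.21 against -0.23, SE 0.07 and -0.46, SE 0.09), and no other named gene that was called did under any setting run. Of the named genes that were not called, Fbln2, Fn1, Hsp90b1, Lrp1, Nedd4 and Oas3 had values on both sides of 0. The cause was not tested.

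With 2 libraries per label the spread rests on few values, labels do not match the level of Zmynd11, and genes near 1 read in a library are the least certain.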
